A study of Homo sapiens with 2 samples.

Results

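The genes described here are 10 markers of stem and progenitor cells, PROM1, NES, SOX2, POU5F1, NANOG, KLF4, LIN28, MSI1, ALDH1A1 and KIT. They were taken by name from the array annotation, with every probe kept, and were read from 14 probes of the 41000 on the array, which cover 30982 gene names. Expression was measured in the Y79 cell line, an established human retinoblastoma line that grows in suspension, on 2 one-color arrays. One array carried RNA from cells that had received no siRNA, and the other carried RNA from cells collected 48 h after treatment with siRNA against Ep-CAM. According to the methods of the study both cultures had first been exposed to 5′-azacytidine (AZC), a DNA demethylating agent, whereas the sample labels name only the siRNA. The control of the arrays was untreated rather than treated with a scrambled siRNA, so the transfection and the loss of Ep-CAM cannot be told apart. With 1 array per condition, no test between the conditions was made and no ratio had a replicate check.

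Markers of this kind name genes whose products are abundant in cells that still divide and have not taken a final fate. POU5F1, SOX2 and NANOG are transcription factors that bind one another's genes and hold embryonic stem cells in the pluripotent state. NES and MSI1 mark neural progenitors, and SOX2 is also made by the progenitor cells of the developing retina. Ep-CAM itself is present on the surface of undifferentiated embryonic stem cells, and the comparison asked how these transcripts stood after Ep-CAM was silenced in a retinal tumor line.

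Of the 10 genes, 8 gave a signal well above background on both arrays and 2, LIN28 and ALDH1A1, did so on neither. None of their 12 measured probes differed 2-fold between the arrays, beside 2.19% of the 29345 probes tested on the whole array. The farthest from 0 was KLF4, a zinc finger factor of the reprogramming set, with a log2 ratio of -0.80. Ratios are log2 of the siRNA-treated over the untreated signal, each array having been divided by its own median. Apart from KLF4 and SOX2, the measured probes lay between -0.10 and 0.15. Their errors were larger than their distance from 0.

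The arrays read each transcript through an oligonucleotide of 60 bases, and what a value stands for depends on that oligonucleotide. The probes of KLF4 and SOX2 are shown because these were the genes farthest from 0, and a pair of POU5F1 because these probes overlap. In the POU5F1 pair the capitals mark the 51 bases that both probes hold, so the readings of this pair were of nearly one sequence and not independent. Positions are given on hg17, as in the array files. The POU5F1 probes shown each had a genomic span of 344 bases, longer than the probe, and so crossed a splice junction. Processed transcripts and related gene copies without introns can match such a probe equally, and the annotation of these POU5F1 probes listed a noncoding transcript beside the gene.
KLF4, chr9:107327604-107327663, minus strand: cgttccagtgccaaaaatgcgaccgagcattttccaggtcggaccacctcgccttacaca
SOX2, chr3:182913448-182913507, plus strand: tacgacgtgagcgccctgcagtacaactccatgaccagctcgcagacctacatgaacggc
POU5F1, chr6:31241004-31241347, minus strand: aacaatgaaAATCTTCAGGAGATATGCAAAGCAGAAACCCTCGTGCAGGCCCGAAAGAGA
POU5F1, chr6:31240995-31241338, minus strand: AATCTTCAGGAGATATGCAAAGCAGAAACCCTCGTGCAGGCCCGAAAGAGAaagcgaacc

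Signals are given as the processed intensity of a spot, its brightness after background subtraction, in arbitrary units. The value after ± is the error that the scanner software assigned to the spot, which is technical and leaves out the variation between cultures. A signal counted as measured where the software flagged it as well above background, and is called dim where it did not. The lowest measured signal of the untreated array was 14.9 and that of the treated array 17.5, and 70.4% and 68.0% of the transcript spots passed. One corner of the array, marked off after the data were seen, had a wider spread of log2 ratios (SD 0.51 against 0.29 outside it), and among the marker probes it held 1 of the 10 KIT spots and nothing else. The single Ep-CAM probe, listed as TACSTD1, had signals of 15.6 and 11.96 and was dim on both arrays, so the knockdown could not be read from these data. Because probes bind with different strength, the signals of different probes are not read as the relative abundance of their transcripts.

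**Figure D1:**
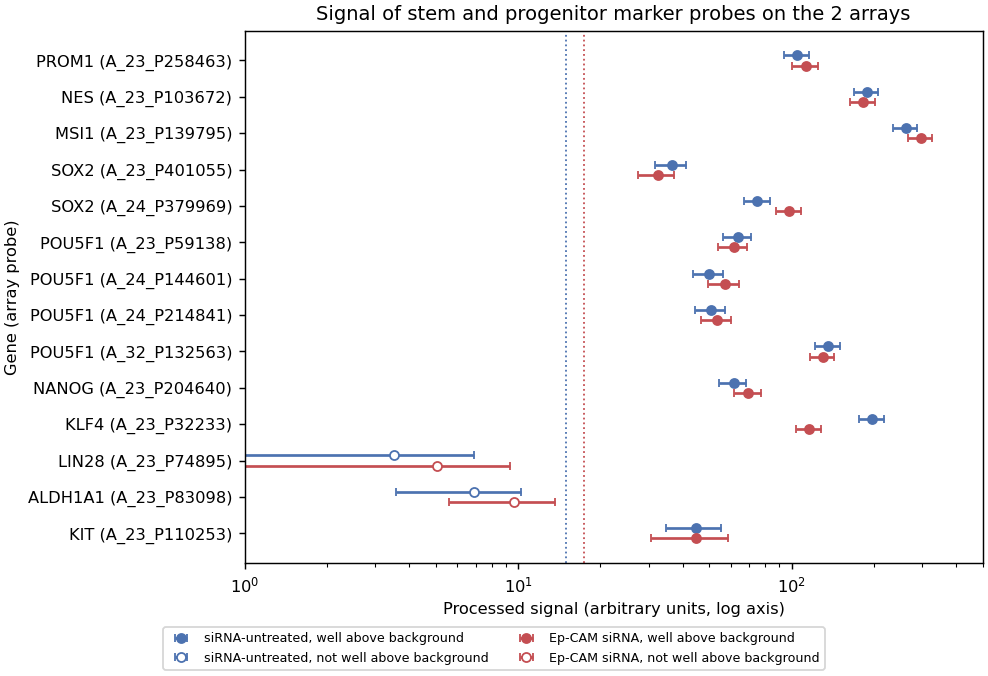
Processed signal (arbitrary units, log axis) of the 14 probes in siRNA-untreated (blue) and siRNA-treated (red) cells. Bars are the scanner software's error of the spot, or for KIT the SD over 10 spots, and dotted lines mark the lowest signal well above background on each array. KLF4 read 197 and 116 with bars that did not overlap, and LIN28 and ALDH1A1 lay left of both lines.

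KLF4 encodes a zinc finger transcription factor that is among the factors used to reprogram somatic cells, and that in differentiated epithelia restrains the cell cycle. Its single spot, outside the corner, gave 197 ± 20.0 without siRNA and 116 ± 12.2 after siRNA. The treated array was the lower one, at 0.574 of the untreated value, and the error ranges were apart. The log2 ratio of -0.80 had an error of 0.21, so that it lay 3.80 errors from 0. Of the 26976 probes measured on both arrays, 1.99% had a ratio as low or lower. Among the 50 measured spots within 4 rows and 4 columns the median log2 ratio was -0.01, and 1 of them was past 2-fold. KLF4 kept its sign in the 8 other settings of scaling, background and floor that were tried, with values between -0.87 and -0.60. The other floor left its value unchanged, and every scaling but quantile normalization shifted all probes by the same small amount. The array had no other KLF4 probe against which the value could be set.

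SOX2 encodes a high mobility group factor shared by pluripotent cells and by neural and retinal progenitors. At the probe shown above untreated cells gave 75.03 ± 8.18 and siRNA-treated cells 97.9 ± 10.5. The log2 ratio there was 0.35 with an error of 0.22, and 7.40% of all measured probes had one as high or higher. At the other probe, chr3:182914579-182914638, the signals were 36.5 ± 4.74 and 32.4 ± 4.84, and the log2 ratio was -0.21 with an error of 0.29. The higher array was thus the treated one at the first probe and the untreated one at the second. The difference between the SOX2 probes was 0.56 with an error of 0.36. At the scaling used here the probes gave no common direction for SOX2, and the spread between them was larger than the value of either one. The same opposite signs were seen in every other setting but normexp over all spots, for example 0.23 and -0.14 in the authors' raw values. The other floor changed neither value, and every scaling but quantile normalization shifted both by the same small amount. Those settings could therefore not have reversed a sign. With normexp background correction over all spots, which moved the median of all measured probes to -0.20, the higher probe was at -0.01 and the other at 0.03. Relative to that median they lay at 0.19 and 0.23, both above it.

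POU5F1, also called OCT4, encodes the POU domain factor without which the pluripotent state is lost. At one of its probes untreated cells gave 136 ± 14.0 and treated cells 130 ± 13.6. The probe pair that shares 51 bases read 50.0 ± 6.29 and 56.9 ± 7.31 at the first and 50.7 ± 6.35 and 53.5 ± 6.78 at the second. The probe at chr6:31240157-31240216 read 63.8 ± 7.41 and 61.4 ± 7.64. At every probe the error ranges of the arrays overlapped. The 4 log2 ratios were -0.10, 0.15, 0.04 and -0.09, with 2 above and 2 below 0, and had a mean of 0.00 (SD 0.12 over 4 probes, which read one pair of RNA samples).

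NANOG encodes a homeobox factor that stabilizes self-renewal together with POU5F1 and SOX2. Its probe at chr12:7839754-7839813 gave 61.4 ± 6.89 without siRNA and 69.6 ± 7.83 after siRNA. The error ranges overlapped, and the log2 ratio was 0.15 with an error of 0.23. NANOG also has processed pseudogenes, and which of these the probe matches was not tested.

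LIN28, today LIN28A, encodes an RNA-binding protein that blocks maturation of the let-7 microRNAs. At chr1:26439841-26439900 it gave 3.51 ± 3.40 without siRNA and 5.04 ± 4.26 after siRNA, close to the size of its own error on both arrays. Its paralog LIN28B, which acts on the same microRNAs, had 2 probes, both dim on both arrays. A difference in LIN28 was not detectable at these signals.

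**Figure D2:**
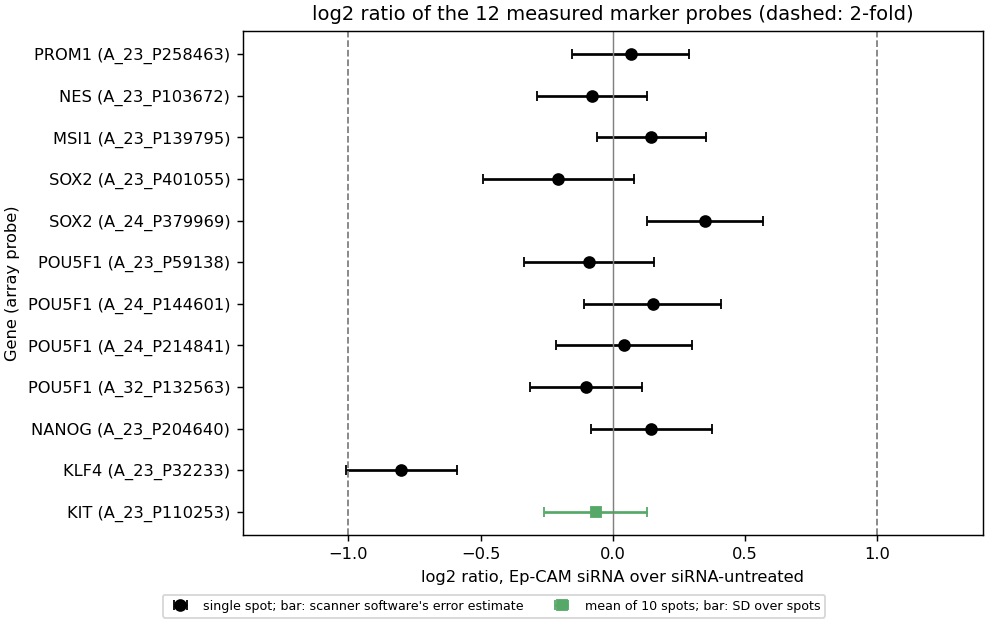
log2 ratio (siRNA-treated over untreated) for the 12 probes measured on both arrays. Bars are the error of a single spot (circles) or the SD over 10 spots (square), and dashed lines mark 2-fold. KLF4 stood at -0.80 and the higher SOX2 probe at 0.35, while the bars of the other 10 probes crossed 0.

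The neural progenitor markers were close to 0. NES encodes nestin, an intermediate filament protein of dividing neural precursors, and its probe at chr1:153451914-153451973 read 188 ± 19.2 without siRNA and 183 ± 18.7 after siRNA. MSI1 encodes musashi, an RNA-binding protein that represses translation of differentiation genes, and its probe at chr12:119242930-119242989 read 262 ± 26.4 and 297 ± 30.0. The untreated array was slightly higher for NES and the treated array for MSI1, with overlapping error ranges for both. The log2 ratios were -0.08 with an error of 0.21 for NES and 0.15 with an error of 0.21 for MSI1.

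PROM1 encodes prominin, known as CD133, a membrane glycoprotein used to sort stem-like cells from many tumors. In the retina the same protein belongs to the photoreceptor outer segment, where it is needed to form the discs. In cells of retinal origin its transcript therefore need not mark immature cells alone, and which it reflects in this line was not tested. Its probe at chr4:15646926-15646985 read 105 ± 11.3 without siRNA and 113 ± 12.3 after siRNA. The error ranges overlapped, and the log2 ratio was 0.07 with an error of 0.22.

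ALDH1A1 encodes a retinaldehyde dehydrogenase that makes retinoic acid, and its activity is a common label of stem-like cells in sorting. Its probe at chr9:72745690-72745749 read 6.90 ± 3.32 without siRNA and 9.64 ± 4.04 after siRNA, dim on both arrays. Without a filter on dim probes the log2 ratio would be 0.45 for ALDH1A1 and 0.49 for LIN28, from signals below the lowest that counted as measured. With both signals dim, no difference could be read for these markers, whereas a rise above the lowest measured signal would have given a bound.

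KIT encodes the receptor tyrosine kinase for stem cell factor, found on blood, germ and pigment cell progenitors. Its probe at chr4:55447439-55447498 was printed at 10 spots, which gives the only replicated reading among the markers, although the spots shared one RNA sample per array. In untreated cells the spots had a lowest signal of 22.8, a median of 47.2 and a highest of 55.9. In siRNA-treated cells they had a lowest of 22.5, a median of 43.7 and a highest of 66.3. The ranges overlapped almost wholly, and the lowest value on both arrays came from the spot in the corner, the only dim one. Over the 10 spots the log2 ratio averaged -0.06 with a technical SD of 0.19, with 3 spots higher and 7 lower in treated cells and a range from -0.36 to 0.24. Without the spot in the corner, left out after the data were seen, the mean was -0.07 (SD 0.21, n = 9 spots). The ligand of KIT, encoded by KITLG, had log2 ratios of -0.23 and -0.12 at its measured probes, the second of them in the corner. Both were within their errors of 0.34 and 0.23.

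**Figure D3:**
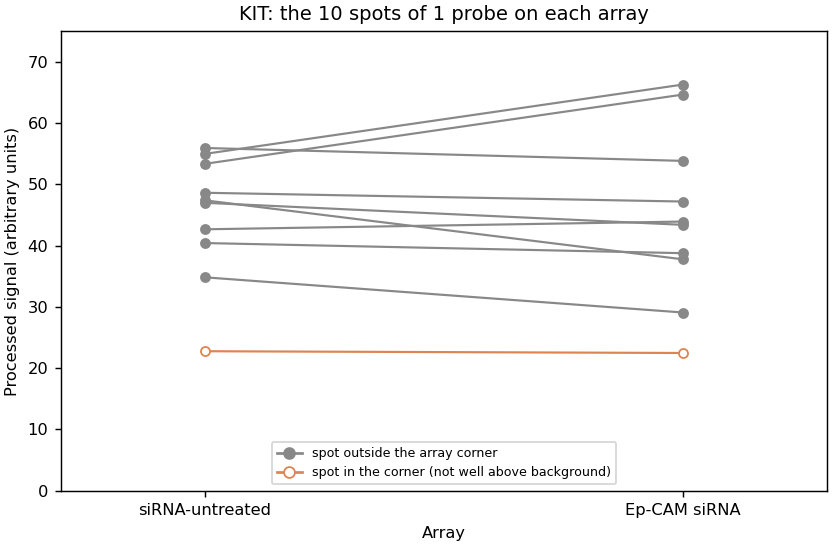
Processed signal (arbitrary units) of the 10 spots of the KIT probe, each line joining the same position on both arrays. Lines ran in both directions (3 up and 7 down by the scaled ratio), and the corner spot, drawn in orange with open symbols, was lowest on both arrays at 22.8 and 22.5.

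Of all probes tested, 1.27% were past 2-fold higher and 0.927% lower. With 12 measured marker probes, a count of 0 in each direction is near that background and is not a result about the markers. Their median log2 ratio was -0.01, beside -0.03 over all 26976 measured probes, and 6 were above and 6 below 0. POU5F1 made up 4 of the 12, so these counts weigh the genes unequally. Without KLF4 the SD over the marker probes was 0.16 (n = 11), and with it 0.28, beside 0.33 over all measured probes. The errors of the single-spot markers were 0.21 to 0.29 on the log2 scale. Probes of similar signal that were printed 10 times had a median technical SD of 0.12 to 0.24 between spots. Being well above background on both arrays was a property of 12 of the 14 marker probes and of 66.0% of all probes with a value.

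**Figure D4:**
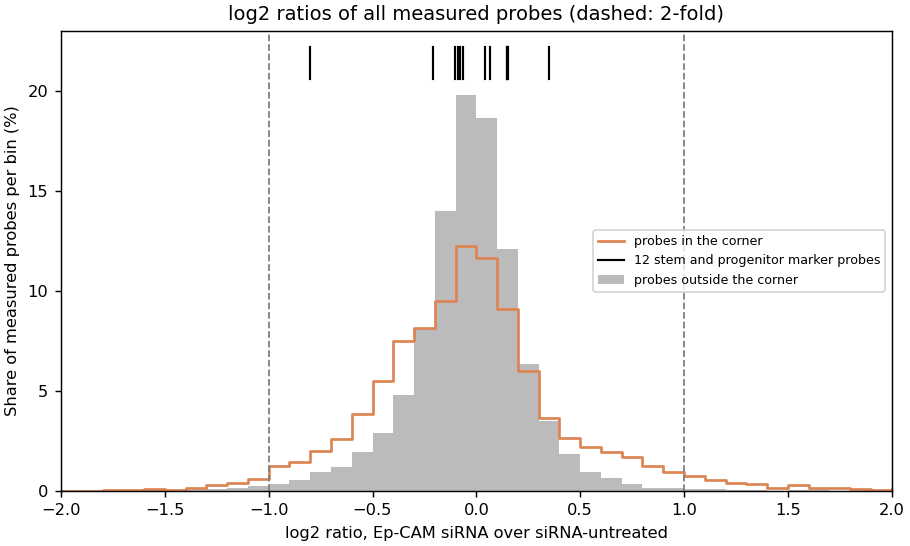
Share of the measured probes (%) by log2 ratio (siRNA-treated over untreated), for probes outside the corner (grey) and in it (orange line), within -2 and 2 on the log2 axis. Black ticks are the 12 marker probes, which sat within the bulk of the distribution except KLF4 at -0.80.

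Other genes of the same programs were taken from 3 lists. Of the pluripotency genes, 35 were on the array with 46 probes, and 33 probes were well above background on at least 1 array. Past 2-fold were 0 higher and 1 lower, and the median log2 ratio of the 29 measured on both arrays was -0.03. UTF1 and FOXD3, factors of embryonic stem cells, had signals of 485 and 551 (log2 ratio 0.15) and of 480 and 530 (log2 ratio 0.11). MYC, a driver of growth that belongs to the reprogramming set, read 873 and 891 at its brightest probe, with a log2 ratio of -0.01. These readings, named for the height of their signal in untreated cells, differed by less than their errors of 0.20.

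The probe past 2-fold was that of ZFP42, also called REX1, a zinc finger gene shut off when embryonic stem cells differentiate. At chr4:189301112-189301171 it gave 146 ± 15.0 without siRNA and 3.92 ± 3.91, a dim signal, after siRNA, which makes it at least 8.55-fold lower. The size of this bound changed with the background correction. The log2 ratio was -3.10 here and lay between -1.49 and -1.26 in the authors' raw values and the normexp fits, past 2-fold in each. The spot stands at row 148 and column 48, outside the corner, and is the only one of the gene. Among the 64 measured spots within 4 rows and 4 columns, 5 were past 2-fold. They were TLN2 (-2.64), ATAD4 (-2.01), an unnamed transcript (-1.39) and CDC2L1 (-1.19), which were lower, and FRG1 (1.67), which was higher. The SD of the log2 ratios of these neighbors was 0.57, beside 0.30 around KLF4. The part of the array position in the ZFP42 value was not tested.

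Of the neural and retinal progenitor genes, 36 were on the array with 60 probes, 44 of them well above background on at least 1 array. Past 2-fold were again 0 higher and 1 lower, and the median of the 41 measured probes was 0.00. The lower one was LHX2, a LIM homeodomain factor that specifies the eye field and is kept in retinal progenitors. At its single spot, at chr9:123874811-123874870, LHX2 gave 273 ± 27.6 without siRNA and 139 ± 14.6 after siRNA. The log2 ratio was -1.01 with an error of 0.21. None of its 46 measured neighbors on the array was past 2-fold. The value lay at the threshold and passed it in 1 of 8 other settings, with a range from -1.01 to -0.71. The setting that passed was the other floor, which left the value unchanged, and LHX2 fell short of 2-fold in all the rest.

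Named by the same rule were TUBB3, a neuronal tubulin, SOX1, a factor of neural progenitors, and VIM, an intermediate filament gene. TUBB3 read 7120 and 13252 at its brighter probe (log2 ratio 0.86 with an error of 0.20). The other probe read only 30.1 and 31.2 (0.02 with an error of 0.32). SOX1 had -0.53 by a probe in the corner and -0.54 by one outside it. VIM had -0.17 and -0.59. The other eye field factors of the list, RAX (-0.21), SIX3 (0.34) and SIX6 (0.14), did not share one direction, and PAX6 had -0.27 with an error of 0.31.

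Of the other stem cell markers, 28 genes were on the array with 44 probes, 32 of them well above background on at least 1 array, and 0 passed 2-fold. The median of the 31 measured probes was 0.04. ABCG2, a drug efflux pump that defines side population cells, had 875 ± 87.6 and 700 ± 70.1 (log2 ratio -0.36). ITGB1, an integrin subunit, had log2 ratios of -0.54, -0.31 and 0.07 at its measured probes, and THY1, a surface glycoprotein, had 0.16. The aldehyde dehydrogenase genes other than ALDH1A1 lay between -0.32 and 0.19 at their measured probes.

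**Figure D5:**
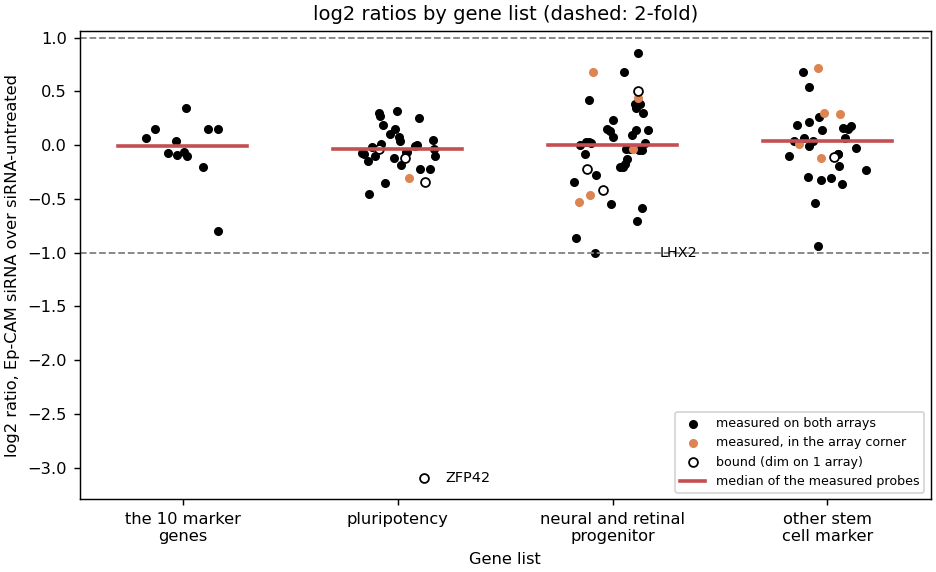
log2 ratio (siRNA-treated over untreated) for the probes of the 10 marker genes and of 3 lists of related genes. Filled points were measured on both arrays (orange in the corner), open points are bounds, red lines are medians and dashed lines mark 2-fold. Medians lay between -0.03 and 0.04, and ZFP42 (at most -3.10) and LHX2 (-1.01) were the points at or past a dashed line.

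Markers of photoreceptors, the lineage that retinoblastoma cells resemble, were measured in part. CRX, the homeobox factor of photoreceptor precursors, had signals of 86.8 and 68.7 (log2 ratio -0.37), and OTX2, which acts above it, had 70.4 and 52.0 (-0.47, by a probe in the corner). The errors were 0.23 for CRX and 0.25 for OTX2. ARR3, a cone arrestin, was measured as well (-0.21 with an error of 0.23), as was GNGT2 (-0.40 with an error of 0.35). AIPL1 went the other way at its measured probe (0.15 with an error of 0.36). THRB was well above background only in untreated cells (26.0, against a dim 16.5 after siRNA), which gives a log2 ratio of at most -0.61. NRL, NEUROD1, RXRG, PDE6H, the recoverin gene RCV1 and the other AIPL1 probe were dim on both arrays. The list also held RB1, the tumor suppressor lost in retinoblastoma, which is no photoreceptor marker. With it, 6 of 14 probes were measured on both arrays and the median log2 ratio was -0.29, and without it 5 of 12 were measured and the median was -0.37. None passed 2-fold.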

How the data were processed

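Total RNA of 2 Y79 cultures was labeled with Cy3 and hybridized by the authors to Agilent whole genome 60-mer arrays, grouped here by their labels. The deposited files hold spot intensity values made by the authors with Agilent Feature Extraction (version 9.5.3.1 per the file headers). The processed intensity is background-subtracted and detrended within the array, without scaling between arrays. Per the file headers both arrays lay on 1 slide and were scanned together. The authors' table for the whole series held the raw median intensity of each spot (100% of 40736 single-spot probes within 1 unit).

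After removal of control and outlier spots (117 and 131), signals were scaled to the 50th percentile of their array (48.8 untreated, 50.0 treated), floored at 0.01, log2-transformed and averaged per probe. A probe was measured where at least 50% of its spots were well above background and was called at 2-fold (log2 ratio of 1 or -1). A probe dim on 1 array gives a bound, computed with the lowest measured signal of that array in place of a dimmer one. The error of a single-spot log2 ratio combines the software's errors of both spots. The number of arrays limits the precision.

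The members, the lists and the rule for named genes (all members, list genes past 2-fold, the 3 brightest of each list) were chosen with earlier results of these data known. A few further genes (KITLG, LIN28B, the other ALDH genes, eye field factors and photoreceptor markers) were named after their values were seen. The ratio code was tested on simulated data. The alternatives were other scalings, normexp in limma 3.58.1, the authors' raw values, other floors and dim filters, and the brightest probe per gene. Python 3.11.15 and R were used. All 10 member genes matched a RefSeq accession.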

Additional observations from a re-analysis of the deposited data

How the results depend on the processing

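No setting tried put a marker probe past 2-fold, and the median log2 ratio over the marker probes stayed between -0.09 and 0.05. A scanner flag for positive and significant signal, or no filter, counted 14 of the 14 probes as measured, and the brightest probe of each gene gave 8 of 10. Over 8 settings of scaling, background and floor, and 1 more for KIT, the 12 measured probes gave 97 values. Of these, 86 moved by less than the technical SD of 0.14 and 11 by more. The other floor left every measured probe unchanged, and every scaling but quantile normalization shifted all probes by the same amount, below that SD. Values from these settings could therefore only count among the 86. Normexp, which moved the median of all measured probes to -0.20, accounted for 7 of the 11, and under it MSI1 was at -0.40, PROM1 at -0.22 and NANOG at -0.09. Relative to that median, taken after seeing the data, these were at -0.20, -0.02 and 0.11, and KLF4 was at -0.66. KLF4 was at -0.60 under normexp fitted without spots dimmer than their local background, a choice made after seeing the data, and at -0.65 in the authors' raw values. ZFP42 was between -3.10 and -1.26. No paired analysis was possible because each condition had 1 array. A probe under 14.9 on the untreated and under 17.5 on the treated array, as LIN28 and ALDH1A1 were, was too dim on both for a ratio.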

Other observations

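Markers of glia, pigment epithelium and fibroblasts were read as well, in what is an established tumor line and not a mixed retinal culture. What their signals came from was not tested. Of 13 glia marker probes, 8 gave a signal well above background on both arrays, with 0 past 2-fold. GFAP, the filament protein of reactive glia, had 103 and 102 at its measured probe, and its other probes were dim on both arrays. GLUL, the glutamine synthetase of Müller glia, was dim on both arrays. APOE, a lipid carrier made by glia, had 7040 and 3771 and a log2 ratio of -0.94 over 10 spots. The median of the measured glia probes was -0.01. VIM, on this list as well, had -0.59 with an error of 0.21 and -0.17 with an error of 0.20. RLBP1, AQP4 and S100B had 0.17, 0.14 and 0.10, within their errors of 0.22, 0.26 and 0.39. The other AQP4 probe was dim on both arrays. Of 14 pigment epithelium probes, 8 were measured and 0 passed 2-fold, and the median log2 ratio was 0.07. RPE65, the isomerase of the visual cycle, TTR and TYRP1 were dim on both arrays. At their measured probes TYR had 327 and 360 (log2 ratio 0.10) and SERPINF1 had 180 and 185 (0.00). SILV had 0.06 and -0.13, and VMD2 had 0.08. MITF had -0.18, 0.17 and 0.92, the values of 0.17 and 0.92 by probes in the corner. Of 13 fibroblast probes, 10 were measured and 0 passed 2-fold, and the median log2 ratio was -0.01.

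The spots of KIT also gave the spread within each array. On the untreated array the SD of the log2 signals over the spots was 0.39, and on the siRNA-treated array 0.48, and the SD of the log2 ratio at the same position was 0.19. Without the spot in the corner these were 0.22, 0.38 and 0.21, so that on the untreated array the spread between spots was close to that of the ratio.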
